A study of Rattus norvegicus with 12 samples.

Results

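The heavy neurofilament subunit Nefh (ENSRNOG00000008716) was followed across 12 RNA sequencing libraries of rat primary cortical neurons. The neurofilament set was chosen by 3 identifiers, those of Nefl (ENSRNOG00000013658), Nefm (ENSRNOG00000013916) and Nefh, with no threshold on a measured value. The identifier of Nefh matched 1 of the 25424 genes read, and Nefl and Nefm are not analysed here, so the values below say nothing of the proportions of the subunits. Nefh passed the filter on low values with which 12150 genes were tested.

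Neurofilaments are the intermediate filaments of axons. They are built from a light (Nefl), a medium (Nefm) and a heavy (Nefh) subunit together with internexin or peripherin, and they set the calibre of large axons. Nefh carries the longest tail, which projects from the filament and is heavily phosphorylated in mature axons, and its expression rises later in neuronal development than that of the other subunits.

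Cortical neurons of Sprague-Dawley rat embryos were grown to 28 days in vitro with the NMDA receptor blocker APV in the medium, and no genetic change was made. For the last 24 h one arm received 100 nM of a synthetic rat amyloid-β (Aβ) preparation that includes oligomers, and the other arm its HEPES buffer as vehicle. Cycloheximide, which holds ribosomes on their mRNAs, was present at lysis, and cytosolic lysate was either kept as total RNA or spun through a sucrose cushion to pellet the ribosome-enriched RNA. A pellet of this kind holds whatever sediments through the cushion, so it is not a direct measure of translation. Each of the 4 groups (total or ribosome-enriched RNA, from vehicle or Aβ cultures) had 3 libraries, and a library is named here by the number in its sample title. The study describes its total and ribosome-enriched libraries as paired, but no source used here says which library pairs with which. The comparisons below therefore take the libraries as independent unless a block is named. Their p-values rest on the spread between these libraries, part of which may be technical, and those by limma also borrow from the spread of other genes. The cells are labelled as cortical neurons. Identifiers come without gene names in these files, and markers of neurons and glia, and the partners, motors and kinases of neurofilaments, were not analysed here.

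The level of Nefh is given as FPKM, fragments counted per transcript length and sequencing depth, divided by a size factor that brings the libraries to a common scale (scaled FPKM). The libraries held 14089739 to 20036998 mapped fragments, of which 88 to 390 fell on Nefh. The deposited values imply a transcript length of 3843 bases for Nefh, against a median of 1983 bases among the genes tested. Intervals of counts below cover counting error only. Because both fractions come from whole cultures, fewer cells with Nefh mRNA and less Nefh mRNA per cell cannot be told apart, and a level is a share of the RNA in its fraction, not an amount.

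In total RNA, Nefh was steady over libraries and treatments. The vehicle total libraries 4, 8 and 12 had 4.56, 4.70 and 5.22 scaled FPKM (346, 372 and 348 fragments), a mean of 4.82 ± 0.352 (SD, n = 3). The Aβ total libraries 3, 7 and 11 had 4.46, 5.06 and 5.04 scaled FPKM (360, 383 and 390 fragments), a mean of 4.85 ± 0.342 (SD, n = 3). The ranges of the 2 groups overlapped, and the highest of the 6 total libraries was 1.17 times the lowest. With these levels Nefh was above 64.1 to 66.2% of the listed genes in every total library, at rank 8582 to 9115 from the highest. Many of the listed genes had no reads, as 16481 to 17076 were above 0 in these libraries. Among the genes detected, Nefh thus lay somewhat below the middle.

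In the ribosome-enriched fraction the level had a lower mean and a wider spread. The vehicle ribosome libraries 2, 6 and 10 had 4.63, 3.46 and 5.33 scaled FPKM (220, 197 and 309 fragments), a mean of 4.47 ± 0.947 (SD, n = 3). Library 6 lay below every total library, library 2 lay among them and library 10 lay above them. The Aβ ribosome libraries 1, 5 and 9 had 1.65, 2.63 and 4.35 scaled FPKM (88, 180 and 255 fragments), a mean of 2.88 ± 1.37 (SD, n = 3). All of them were below the lowest total library, library 9 by little, and libraries 1 and 5 were also below every vehicle ribosome library. Library 1 stood lowest of the 12, and its 95% exact Poisson interval of 71 to 108 fragments corresponds to 1.32 to 2.03 scaled FPKM, which does not reach the interval of any other library.

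**Figure D1:**
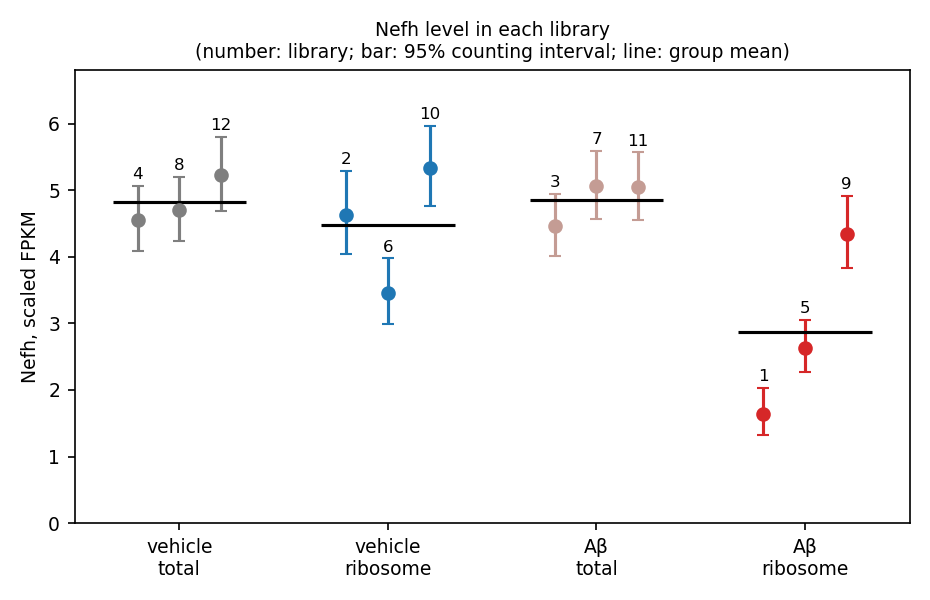
Nefh in each library as scaled FPKM (vertical axis, from 0), by group (horizontal axis). Points are libraries with their number, bars 95% Poisson counting intervals, horizontal lines group means. The 6 total libraries sit between 4.46 and 5.22, and the Aβ ribosome libraries run from 1.65 to 4.35, all below them.

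The spread in the ribosome fraction was larger than counting error gives. The variance of the fragments between libraries was 1.80 times the counting variance in vehicle total and 1.92 times in Aβ total, but 11.5 times in vehicle ribosome and 36.5 times in Aβ ribosome libraries. On the log2(scaled FPKM + 1) scale the SD of Nefh was 0.51 in Aβ ribosome libraries, above that of 90.4% of the genes tested, whose median SD was 0.21 there. In vehicle ribosome libraries its SD of 0.26 was close to the median of 0.30, and in total RNA its SD of 0.09 in either treatment was under the medians of 0.12 and 0.11. The order of the group means was thus Aβ total, vehicle total, vehicle ribosome and Aβ ribosome, and the first 3 did not differ beyond their spread.

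Whether Nefh mRNA was depleted from the ribosome pellet was tested within each treatment by limma, with p-values adjusted over all genes by the Benjamini-Hochberg method and a threshold of 0.05. In vehicle-treated cells the ribosome fraction held 92.7% of the level in total RNA, a log2 difference of -0.10 (standard error 0.18, 95% interval -0.53 to 0.32, limma adjusted p = 0.691). In Aβ-treated cells it held 59.3%, a log2 difference of -0.65 (standard error 0.25, 95% interval -1.23 to -0.08, unadjusted p = 0.0311 and adjusted p = 0.0685 by limma). Each fit takes the spread as common to both fractions, but the log2 SD of Nefh was 0.51 in Aβ ribosome and 0.09 in Aβ total libraries. It also draws the spread of each gene towards that of other genes, so the interval in Aβ does not rest on Nefh alone. Neither difference between fractions passed the threshold. For comparison, 32.3% of the genes tested passed it in vehicle, 16.4% of all genes as lower in the ribosome fraction, and 41.1% passed it in Aβ, 21.5% as lower. The Aβ ribosome libraries lay below all Aβ total libraries for Nefh and for 28% of the genes tested. In Aβ, 15.3% of the genes tested had a lower difference than Nefh, so that it belonged to the lower part of the distribution without standing at its edge. With each run of 4 consecutive sample numbers taken as a pair of fractions, which is an assumption, the adjusted p by limma with this replicate block was 0.760 in vehicle and 0.0513 in Aβ. A pseudocount of 1 before the logarithm makes these differences smaller than the change of FPKM itself.

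The result in Aβ lies close to the threshold and depends on how the spread is estimated and how the libraries are scaled. A single fit of the 4 groups shares the spread with the vehicle libraries, which varied less for Nefh than the Aβ ribosome libraries. In that fit the same log2 difference of -0.65 had an adjusted p of 0.0400 by limma (36.8% of all genes passed). It was -0.86 (adjusted p = 0.0197 by limma, 43.2% of all genes passed) with the FPKM as deposited, where the median of all genes itself moved to -0.23, and -0.85 (adjusted p = 0.0386, 42.8% of all genes passed) with limma's voom weights on the fragments. Weighting the libraries by their estimated precision gave -0.74 (adjusted p = 0.0229 by limma, 42.9% of all genes passed). Relative to the median of all genes, the difference of Nefh in Aβ was between -0.66 and -0.64 under the 4 scalings compared, and that in vehicle between -0.10 and -0.08. Each of these scalings moves all genes of a library nearly alike, so this closeness was largely set in advance and is not a test. Removing the trend with transcript length, a setting added after the data were seen, gave -0.47 in Aβ (adjusted p = 0.168 by limma). The adjusted p in Aβ ranged from 0.0197 to 0.168 over the settings that kept all libraries and from 0.00698 to 0.166 with a library left out. Single pellets moved it too. Without library 9, the Aβ ribosome library with the highest level, the log2 difference was -0.92 with an adjusted p of 0.00698 by limma (48% of all genes passed), while without library 1 it was -0.40 with an adjusted p of 0.147. In vehicle, the same weighting brought the difference to -0.31 with an adjusted p of 0.0248 by limma, in a fit where 70.3% of all genes passed the threshold. The sign of the small difference in vehicle turned when the libraries were centred on their median log2 value (0.09), when the trend with transcript length was removed (0.13) and without library 6 (0.04).

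**Figure D2:**
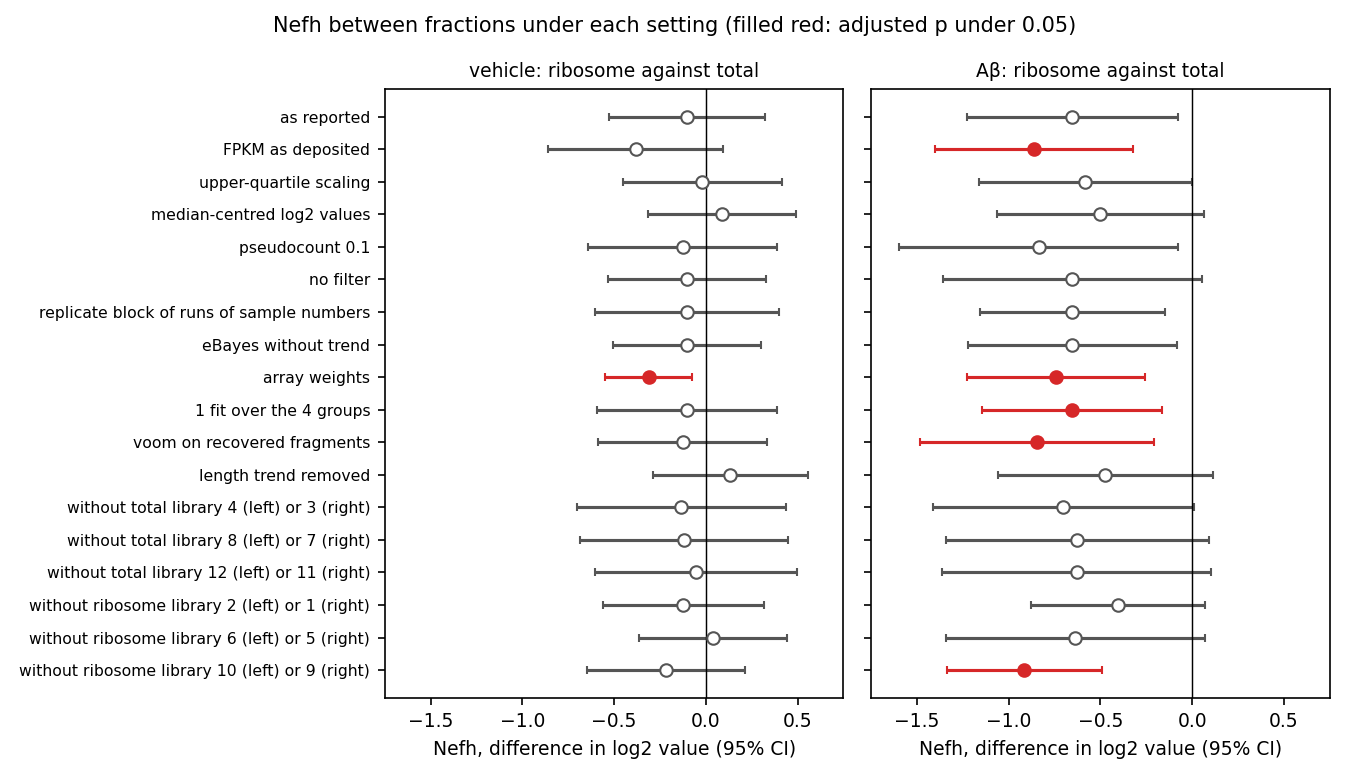
Difference of Nefh between the ribosome and total fraction (horizontal axis, log2, with 95% confidence interval) under each processing setting (rows), in vehicle on the left and Aβ on the right. Filled red points have an adjusted p under 0.05. In Aβ all points lie below 0, from -0.92 to -0.40, and 5 of the alternatives pass the threshold, against 1 in vehicle.

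Over the libraries of both treatments, the log2 difference between the ribosome fraction and total RNA was -0.38 (two-sided exact permutation test, fraction labels permuted within each treatment without pairing, 400 arrangements, p = 0.07, smallest possible p 0.005). With the FPKM as deposited, the difference was -0.62 and the same exact permutation test gave p = 0.005, the smallest it can give. On that scale the total libraries ranged from 5.03 to 5.68 FPKM and the ribosome libraries from 1.60 to 5.04 FPKM, with vehicle ribosome library 10 the only one to reach the total libraries. In the deposited FPKM the median gene was lower in the ribosome fraction, by a log2 value of -0.30 in vehicle and -0.23 in Aβ. The scaled values, used as the main ones, take the median gene as nearly equal between fractions. That assumption was not tested, and the result of the exact test depends on it.

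Between treatments, the mean of Nefh was lower with Aβ in the pellet and nearly equal in total RNA, and neither comparison passed the threshold. In the ribosome fraction the Aβ mean was 64.3% of the vehicle mean, a log2 difference of -0.54 (standard error 0.22, 95% interval -1.03 to -0.05, unadjusted p = 0.0330 and adjusted p = 0.9997 by limma). The interval rests on a spread shared by all 12 libraries, and the total libraries varied less than the pellets. In a fit of the 6 ribosome libraries alone, added after the data were seen, the standard error was 0.29 and the 95% interval -1.22 to 0.14 (unadjusted p = 0.103 and adjusted p = 1 by limma, with 0% of the genes passing). Of the 12150 genes tested, 85 (0.70%) had a lower difference, which describes the rank of Nefh and is not a test. This share moved with the processing, and was 0.53% with the trend with transcript length removed. It was 4.55% without library 1, 5.44% with the libraries weighted by their precision and 5.45% without library 10. Libraries of the 2 groups overlapped, since Aβ library 9 had more Nefh than vehicle library 6. By an exact permutation test of these 3 against 3 libraries the two-sided p was 0.2, where 20 arrangements cannot give less than 0.1. The threshold was passed by 0% of the genes in this comparison. Before adjustment 178 of the 12150 genes were below 0.05, a smaller share than the 0.05 that arises when no gene differs. In total RNA the Aβ mean was 101% of the vehicle mean, a log2 difference of 0.01 (standard error 0.22, 95% interval -0.48 to 0.50, limma adjusted p = 1). There 0% of the genes passed the threshold and 20 were below 0.05 before adjustment, again a smaller share than 0.05. With the 6 total libraries alone the same difference had a standard error of 0.09 and a 95% interval of -0.21 to 0.23 (adjusted p = 1 by limma, with 0% of the genes passing). That interval overlaps the one from the 6 ribosome libraries alone, -1.22 to 0.14. Such an overlap is not a test of whether the fractions responded differently, for which the interaction term is given next.

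Whether the difference between fractions changed with Aβ was the question of the interaction term. For Nefh it was -0.55 on the log2 scale (standard error 0.32, 95% interval -1.24 to 0.14, unadjusted p = 0.110 and adjusted p = 0.9998 by limma). Of the genes tested, 0% passed the threshold, 84 were below 0.05 before adjustment, and 1.28% had a lower interaction than Nefh. A difference between the treatments in the share of Nefh mRNA in the pellet was therefore not detectable with these libraries. The interaction and the comparison of treatments in the pellet use the same 6 ribosome libraries, and the Aβ ribosome libraries enter 3 of the 5 comparisons.

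**Figure D3:**
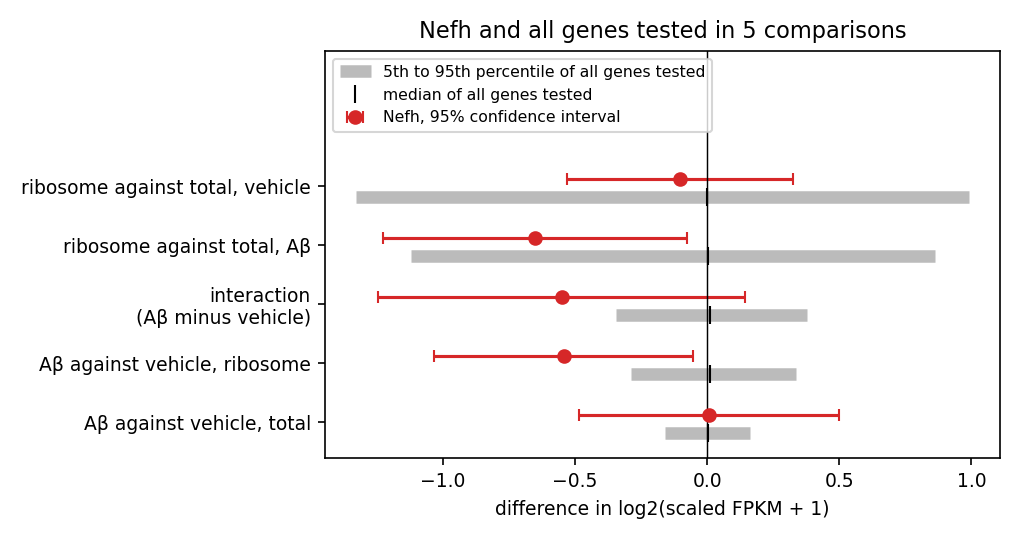
Differences of Nefh in log2(scaled FPKM + 1) for 5 comparisons (rows) with 95% confidence intervals in red, above the 5th to 95th percentile (grey bar) and median (black tick) of the 12150 genes tested. Intervals of the treatment comparisons and the interaction use the spread of all 12 libraries. Nefh lies at -0.65 between fractions in Aβ and at -0.54 between treatments in the ribosome fraction, and near 0 in the comparison of treatments in total RNA (0.01).

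Sample numbers run so that each 4 consecutive ones hold 1 library of every group, and the ribosome libraries of a run can be set side by side, although the labels do not say that a run is a culture. Nefh was lower with Aβ than with vehicle in the pellets of all 3 runs, with ratios of 0.355 for samples 1 to 4, 0.762 for samples 5 to 8 and 0.815 for samples 9 to 12. The first run had the widest difference. How many of the genes tested were lower in all 3 runs was not counted, so the shared direction is a description and not a test. In total RNA the ratios were 0.978, 1.08 and 0.965 in the same order, without a common direction. With the runs as a replicate block, the difference of -0.54 in the pellet had an unadjusted p of 0.0189 and an adjusted p of 0.997 by limma, and when each run was blocked separately in pellet and total RNA, a choice made after the data were seen, 0.0138 and 0.695. Without library 1 the difference between treatments in the pellet was -0.30 (unadjusted p = 0.166 by limma). It was -0.80 without library 9 (unadjusted p = 0.00151 by limma) and -0.43 without library 10 (unadjusted p = 0.111 by limma). Weighting the libraries by their precision gave -0.37 (unadjusted p = 0.0856 by limma). None of these differences had an adjusted p under 0.05.

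**Figure D4:**
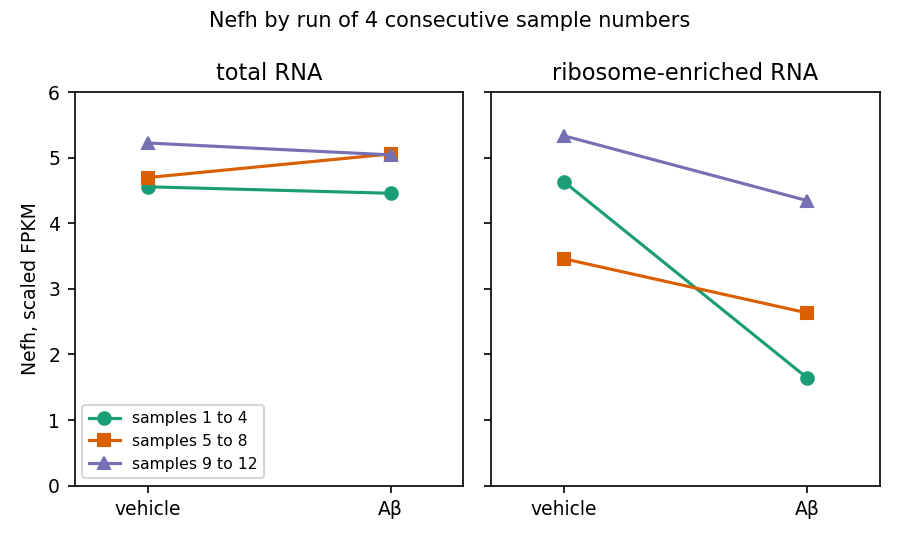
Nefh as scaled FPKM (vertical axis, from 0) in vehicle and Aβ libraries of the same run of 4 consecutive sample numbers, joined by lines, for total RNA (left) and ribosome-enriched RNA (right). In the ribosome-enriched RNA all 3 lines slope down, the first from 4.63 to 1.65, and in total RNA they stay between 4.46 and 5.22.

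Library 1 also stood apart in other measures, whose part in its Nefh level was not tested. The sum of its FPKM over all genes was 581201, below the 636894 to 661749 of the other ribosome libraries and above the 489031 to 499758 of the total libraries. Its size factor of 0.972 was the highest of the ribosome libraries, the others having 0.818 to 0.945, and those of the total libraries were 1.06 to 1.15. It had 14312668 mapped fragments and 15566 genes above 0, where the other Aβ ribosome libraries had 20036998 (library 5) and 16834489 (library 9) and 16449 and 16521 genes. Vehicle ribosome library 2 of the same run had still fewer, 14089739 fragments and 15079 genes, and its Nefh level of 4.63 scaled FPKM was within the range of the total libraries. Library 2 stood furthest from the other ribosome libraries over all genes, with a mean Pearson's r of 0.978 with them against 0.985 to 0.988 for the rest. Without library 2 the difference between treatments in the pellet was -0.52 and that between fractions in vehicle -0.12. The sources say that 3 samples with less RNA went through a more efficient bead capture and do not name them, so that step and the level of Nefh in single libraries cannot be told apart.

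The genes whose levels most resembled those of Nefh over the 12 libraries were ENSRNOG00000007720 and ENSRNOG00000005900, with a Pearson's r of log2(scaled FPKM + 1) of 0.927 and 0.925. Their r is a description, as the libraries share the fraction and the treatment, and both were picked among 12149 genes for this likeness. The median r of all these genes with Nefh was -0.02, and 5 genes reached 0.9. ENSRNOG00000007720 had 23.8 ± 2.10 scaled FPKM in vehicle total, 22.4 ± 1.75 in vehicle ribosome, 24.02 ± 2.10 in Aβ total and 18.8 ± 4.14 in Aβ ribosome libraries (SD, n = 3 each). For ENSRNOG00000005900 the levels were 19.3 ± 2.04, 17.4 ± 0.916, 19.0 ± 1.43 and 14.1 ± 3.10 scaled FPKM in the same order. Both were several times more abundant per length than Nefh and had their lowest values in the same libraries, 15.4 and 11.2 scaled FPKM in library 1 and 17.7 and 13.9 in library 5. Spearman's rho with Nefh, which gives less weight to these libraries, was 0.685 and 0.594.

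**Figure D5:**
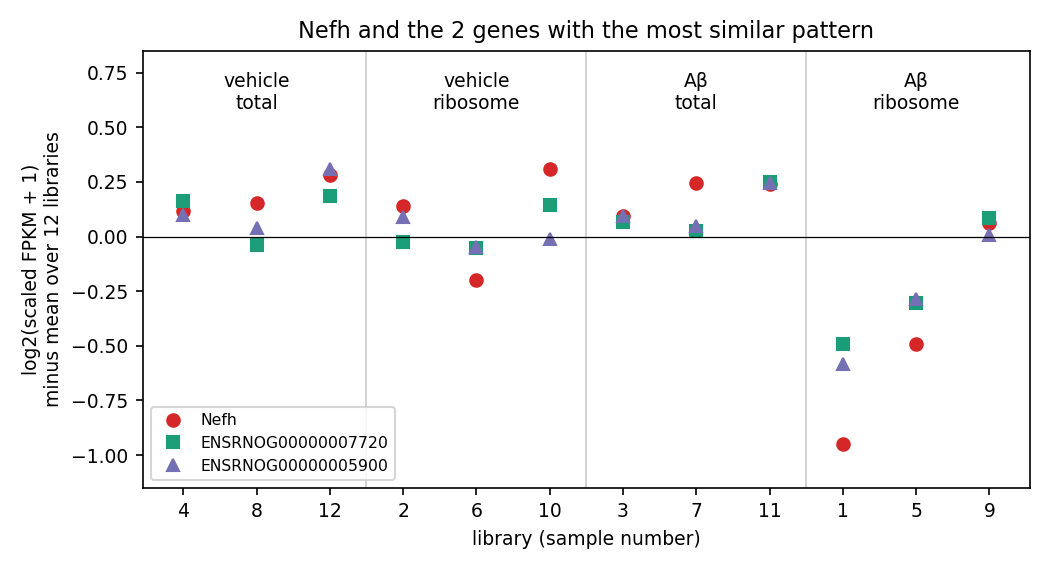
Nefh and the 2 genes with the highest r to it, each as log2(scaled FPKM + 1) minus its own mean over 12 libraries (vertical axis), by library (horizontal axis, grouped). All 3 are lowest in Aβ ribosome libraries 1 and 5, where Nefh is furthest from its mean, and close to their mean in library 9.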

How the data were processed

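Polyadenylated RNA of 12 libraries was sequenced as paired ends. Per the labels and the methods, the authors aligned trimmed reads by TopHat v2.0.12 on a Bowtie v2.2.3 index, counted them on genes with HTSeq v0.6.1 in union mode and deposited FPKM, with no scaling between libraries and no pooling of replicates. The genome build, annotation and strand setting are not given in the sources used here. One incomplete row was left out.

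Size factors from median ratios to a reference of all libraries divided the FPKM. Genes whose mean FPKM reached 1 were tested as log2(scaled FPKM + 1) with limma 3.58.1 in R 4.3.3 (eBayes with a trend, threshold 0.05 after Benjamini-Hochberg adjustment). Fractions were set against each other in a fit of 6 libraries for each treatment, and the other contrasts came from a single fit of 12. Whole fragments were recovered from the steps of the FPKM within 0.003, for 99.8% of the genes tested, and fitting and recovery were checked on data made with known answers. Python 3.11.15, numpy 2.4.6, pandas 2.3.3, scipy 1.17.1 and matplotlib 3.10.9 were also used. Genes to be named were the subunits and the 2 identifiers most like them. The members were set by their identifiers, with no threshold on a measured value, but they, the lists and the tests were chosen with earlier results of these data known. Alternatives covered scaling, pseudocount, filter, weights, block, moderation and each library left out, and of the identifiers 0 could be matched to RefSeq genes of GRCr8.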

Additional observations from a re-analysis of the deposited data

How the results depend on the processing

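The difference between fractions in Aβ passed the threshold with FPKM as deposited (-0.86), array weights (-0.74), voom on recovered fragments (-0.85) and 1 fit over the 4 groups (-0.65), and ranged from -0.92 (without library 9) to -0.40 (without library 1) with a library left out. With the length trend removed the difference in Aβ was -0.47 and did not pass (adjusted p = 0.168 by limma). In vehicle it passed only with array weights (-0.31) and turned sign with median-centred values (0.0873) and the length trend removed (0.13, added after the data were seen), ranging from -0.22 to 0.0377 with a library left out. Between treatments in total RNA it was -0.00109 with FPKM as deposited and -0.0255 to 0.0572 with a library left out. The interaction and the difference between treatments in the pellet kept their direction and did not pass under any setting. The cause of these changes was not tested. Over both treatments, the exact test gave p under 0.05 with FPKM as deposited (-0.62), without library 10 (-0.43) and without library 9 (-0.51). Libraries 10 and 9 had the highest levels of their ribosome groups, so leaving either out lowers the ribosome mean. With any other library left out, the exact permutation test gave p from 0.06 to 0.175.

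With a replicate block for each run of 4 sample numbers, the differences between fractions remained -0.10 in vehicle and -0.65 in Aβ (adjusted p = 0.760 and 0.0513 by limma), and no call changed. Over all genes, 3919 passed in vehicle and 4993 in Aβ, against 1699 to 8546 and 3019 to 5826 under the alternatives. Of the calls, 49.3% in vehicle and 47.8% in Aβ were higher in the ribosome fraction, and 20.1% and 21.7% with FPKM as deposited, 59.0% and 57.2% with upper-quartile scaling, and 65.3% and 62.1% with median-centred values. A filter at a mean FPKM of 5 gave no value, since Nefh is below it. The tests of subunit ratios could not be run with 1 subunit. At 88 to 390 fragments, counting error limits single libraries less than the spread between pellets does.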
